A study of Mus musculus with 62 samples.

Results

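The 6 loci described here encode inhibitors of cyclin-dependent kinases, the enzymes that drive the cell cycle: Cdkn1a (p21), Cdkn1b (p27), Cdkn2a (p16Ink4a and p19Arf), Cdkn2b (p15), Cdkn2c (p18) and Cdkn2d (p19Ink4d). Each locus was taken as the gene body with 20 kb on each side, on mm10 with the GENCODE M21 annotation. All sites that touched these windows were read from 14 tables that compare CUT&Tag signal between genotypes. Of 1743368 sites in the 14 tables, 277 lay in the windows of the 6 genes, and 23 of these were shared by the neighbouring Cdkn2a and Cdkn2b windows. The rule that picks the sites uses position alone, and the 6 genes were chosen with earlier results of these data known.

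CUT&Tag brings the Tn5 transposase to chromatin with an antibody, so that the DNA beside the marked nucleosome or bound protein is tagged and sequenced. HSPCs, lineage-negative c-Kit+ bone-marrow cells enriched on magnetic beads, came from C57BL/6 mice that all carried one copy of the Cre transgene. WT mice were Daxx +/+ Cre +/-, Daxx-KO mice were Daxx F/F Cre +/- and DKO mice were Daxx F/F with Pu.1 F/F and Cre +/-. The methods of the study name the Mx1Cre line, whose interferon-responsive promoter is switched on by pI:pC and is active in more cell types than HSPCs, and w.p.i. counts the weeks after that induction. At 3 w.p.i. the tables compare 2 Daxx-KO with 2 WT libraries for H3.3, Pu.1, H3K27ac and H3K9me3, and at 24 w.p.i. they do so for the same antibodies and H3K27me3. At 8 w.p.i. groups of 3 libraries were compared, Daxx-KO with WT for H3K9me3 and DKO with WT and with Daxx-KO for H3K9me3 and H3K27me3. No age of the mice is used here.

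The antibodies were not applied to independent animals. At 24 w.p.i. all 5 antibodies came from the same 4 mice, at 8 w.p.i. both antibodies came from the same mice, and at 3 w.p.i. H3.3 and Pu.1 shared their mice while H3K27ac and H3K9me3 came from other mice with 1 WT mouse in common. The 3 w.p.i. WT libraries of replicate 2 were shallow, with a mean of 3.06 reads per window for H3.3 against 22.88 in replicate 1, and 2.75 against 33.78 for Pu.1. A single read was worth 2.63 normalized counts in the first of these libraries and 3.23 in the second, so their values near 0 rest on few reads. The lowest and highest mean number of reads per window over all libraries were 1.21 and 33.78 at 3 w.p.i., 0.2 and 3.29 at 8 w.p.i., and 3.97 and 10.3 at 24 w.p.i. The deleted exons of Daxx allowed a partial check of the labels. Over exons 2 and 3, H3K27ac at 3 w.p.i. was 24.2 and 13.6 normalized counts in the Daxx-KO and 65.5 and 105 in the WT libraries, and at 24 w.p.i. it was 113 and 93.7 against 858 and 368 over exons 2 to 6. The H3.3 and Pu.1 libraries of 3 w.p.i., from other Daxx-KO mice, had a listed Daxx site only at exon 1, outside the deleted part, and no table of 8 w.p.i. listed a site in Daxx or Spi1, the gene of Pu.1. The labels of those libraries were therefore not checked in this way. The markers of HSPCs were not checked either, since the tables list differences and not levels.

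A listed site is a region that passed the window test of the study, and a region without one has no value here. The value of a site in a library is its normalized count, the number of reads divided by a constant of that library. A site was called gained when every library of the first-named genotype was above every library of the other, lost when every one was below, and mixed otherwise. Because the listed sites had already been selected on the same libraries, no test across sites was made. An exact two-sided permutation test of 1 site gives no p below 0.333 for 2 against 2 libraries and none below 0.100 for 3 against 3. Counts are therefore set beside the share of all listed sites that were called the same way. In bulk cells, fewer cells of a type and less signal per cell cannot be told apart.

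CDK inhibitors fall into 2 families. The Cip/Kip proteins p21 and p27 bind cyclin-kinase complexes of many kinds, whereas the Ink4 proteins p15, p16, p18 and p19Ink4d bind Cdk4 and Cdk6 and keep the retinoblastoma proteins active. In blood-forming cells p21, p27 and p18 are known for restraining the division of stem and progenitor cells. Cdkn2a and Cdkn2b are textbook targets of Polycomb repression, which is carried by H3K27me3, and Cdkn1a is the best-known target of p53. H3K27ac marks active promoters and enhancers, H3K9me3 marks constitutive heterochromatin, H3.3 is the histone variant that Daxx deposits, and Pu.1 is a myeloid and lymphoid transcription factor.

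The promoters differ in base composition, and 3 are printed because the signal on them is described below, with 250 bases before and 50 after the start site. The sequences are from RefSeq on GRCm38.p6, which has the mm10 coordinates, and were found for all 6 genes, with 9 promoters in all. For Cdkn1a (chr17:29090729-29091028, plus strand) the capitals mark a pair of ACATGT words 4 bases apart, a spacing of CATG cores like that of p53 sites. The pair was chosen after the sequence was read and is in 4 of 32851 RefSeq promoters (0.0122%), searched on both strands. For Cdkn1b (chr6:134920151-134920450, plus strand) and Cdkn2d (chr9:21291160-21291459, minus strand, printed 5′ to 3′ along the gene) the capitals mark GC boxes, GGGCGG on either strand, which 11714 of the promoters (35.7%) hold.
Cdkn1a promoter: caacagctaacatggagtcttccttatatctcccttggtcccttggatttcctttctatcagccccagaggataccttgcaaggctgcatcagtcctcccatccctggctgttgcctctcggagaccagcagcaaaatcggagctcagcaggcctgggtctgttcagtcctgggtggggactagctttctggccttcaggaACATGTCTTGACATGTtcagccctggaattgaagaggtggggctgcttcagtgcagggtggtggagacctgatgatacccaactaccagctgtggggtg
Cdkn1b promoter: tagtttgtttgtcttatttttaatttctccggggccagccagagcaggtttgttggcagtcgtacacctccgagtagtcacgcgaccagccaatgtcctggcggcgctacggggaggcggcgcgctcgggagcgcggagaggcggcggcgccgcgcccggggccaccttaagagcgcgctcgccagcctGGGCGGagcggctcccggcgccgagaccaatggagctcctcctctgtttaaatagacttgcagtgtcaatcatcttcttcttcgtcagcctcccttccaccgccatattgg
Cdkn2d promoter: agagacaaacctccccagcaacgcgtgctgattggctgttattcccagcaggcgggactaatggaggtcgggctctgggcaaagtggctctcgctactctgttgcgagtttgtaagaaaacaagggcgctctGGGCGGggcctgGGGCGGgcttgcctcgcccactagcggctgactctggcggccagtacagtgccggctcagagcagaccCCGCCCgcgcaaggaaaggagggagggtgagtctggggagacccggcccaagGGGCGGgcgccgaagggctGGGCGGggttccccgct

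This Cdkn1a promoter had 2 CpG dinucleotides and a GC content of 54.7%, the Cdkn1b promoter 30 and 62%, and the Cdkn2d promoter 22 and 66.3%, where the median promoter had 7 and 52.7%. The Pu.1 word GAGGAAGT, searched on both strands, was in 1052 of all promoters (3.2%) and in 0 of the 9 member promoters. That says only that these letters are not in these windows. In the listed Pu.1 sites of the loci it was in 2 of 30 gained sites at 3 w.p.i. (6.67%, against 5.36% of all gained sites) and in 0 of 3 lost sites. At 24 w.p.i. it was in 1 of 17 gained sites (5.88%, against 5.58%) and in 2 of 17 lost sites (11.8%, against 5.94%). All 5 of these sites with the word lay in the Cdkn2d window.

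Beside Cdkn2c lay an H3K27me3 site that is described below, and its 300 bases with the most CpG dinucleotides are printed here (chr4:109657134-109657433, plus strand) with every CpG in capitals. They hold 27 CpG at a GC content of 72.7%, whereas the whole site had 120 CpG, or 14.9 per kb, at a GC content of 40.3%.
Cdkn2c downstream site: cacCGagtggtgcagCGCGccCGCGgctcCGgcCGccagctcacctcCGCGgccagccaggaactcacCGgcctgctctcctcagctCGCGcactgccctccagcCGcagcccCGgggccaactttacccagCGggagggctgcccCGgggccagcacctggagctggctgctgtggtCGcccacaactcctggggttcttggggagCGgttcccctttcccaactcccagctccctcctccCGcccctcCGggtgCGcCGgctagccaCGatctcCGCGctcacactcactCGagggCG

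Across the whole set, 162 sites were gained, 103 lost and 12 mixed. These counts pool marks and comparisons whose gained share over all called sites ran from 40.3% to 78.8%, so they only say how many sites each gene had, and the directions are read table by table further on. Cdkn1a had 81 sites, of which 61 were gained and 17 lost. Cdkn2c had 31 gained and 10 lost sites of 43, and Cdkn2d 34 and 29 of 65. Cdkn1b had 22 gained and 18 lost of 42, and Cdkn2b 11 and 13 of 24. Cdkn2a had 14 gained and 28 lost sites of 45. In all, 4 pairs of these sites shared bases within a table, and 2 of the pairs had opposite directions.

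**Figure D1:**
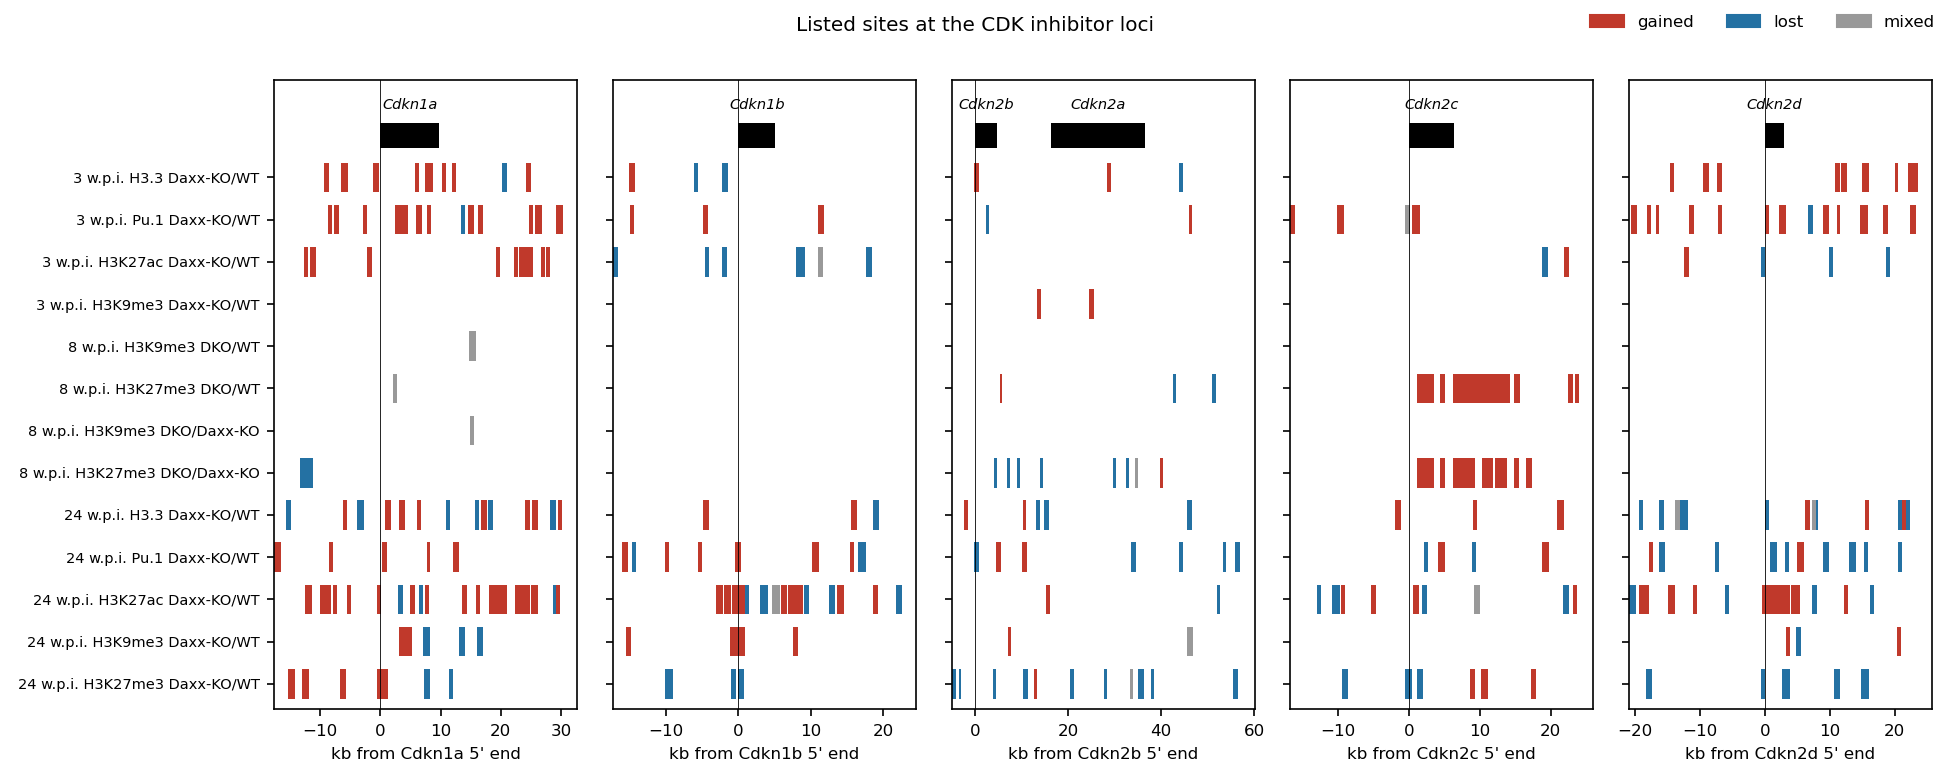
Each bar is a listed site, drawn by its distance in kb from the 5′ end of the gene along its direction of transcription, with 1 line for each table that has a site at the loci. Red bars are gained, blue lost and grey mixed, and black boxes are the gene bodies. The red run downstream of Cdkn2c at 8 w.p.i. and the mostly red Cdkn1a panel stand beside the blue 24 w.p.i. H3K27me3 lines of Cdkn1b, Cdkn2a and Cdkn2d.

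The first question was how the loci changed soon after Daxx loss. At 3 w.p.i. H3.3 had 23 sites, 19 gained and 4 lost, where 58.7% of all 145427 listed sites were gained and 39.7% lost. Cdkn1a had 8 of the gained sites and Cdkn2d 8. Pu.1 had 34 sites, 30 gained, 3 lost and 1 mixed, against 55.3% gained and 42.8% lost of all 161128 sites. Gained sites made up 82.6% of called H3.3 sites (95% Wilson interval 62.9 to 93) and 90.9% of called Pu.1 sites (76.4 to 96.9), beside 59.7% and 56.4% over all called sites. The sites of a locus are not independent, so these intervals cover the counting of sites only. Sites within 1 kb of a start site were mostly gained genome-wide too, 73% for H3.3 and 71.8% for Pu.1, where the members had 5 of 5 and 5 of 6. The shallow WT replicate 2 entered every one of these calls. Without it the gained shares were 82.6% for H3.3 and 91.2% for Pu.1, where leaving out a library can only turn mixed sites into called ones.

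H3K27ac behaved in another way at 3 w.p.i., with 10 gained, 9 lost and 1 mixed site, where 39.4% of all 103914 sites were gained and 58.2% lost. The gained sites were concentrated at Cdkn1a, which had 8 gained and 0 lost. Cdkn1b had 0 gained, 5 lost and 1 mixed, and Cdkn2d 1 gained and 3 lost. H3K9me3 had 2 sites, both gained, one in a Cdkn2a intron and one before the Cdkn2a gene, and both in the windows of Cdkn2a and Cdkn2b, beside 78.5% gained and 21.1% lost of all 62029 sites. The stronger of the pair, the intronic one (chr4:89285451-89286600), had 13.9 and 26.7 normalized counts in the Daxx-KO and 1.75 and 1.16 in the WT libraries. All of these values are low, and the groups did not overlap.

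**Figure D2:**
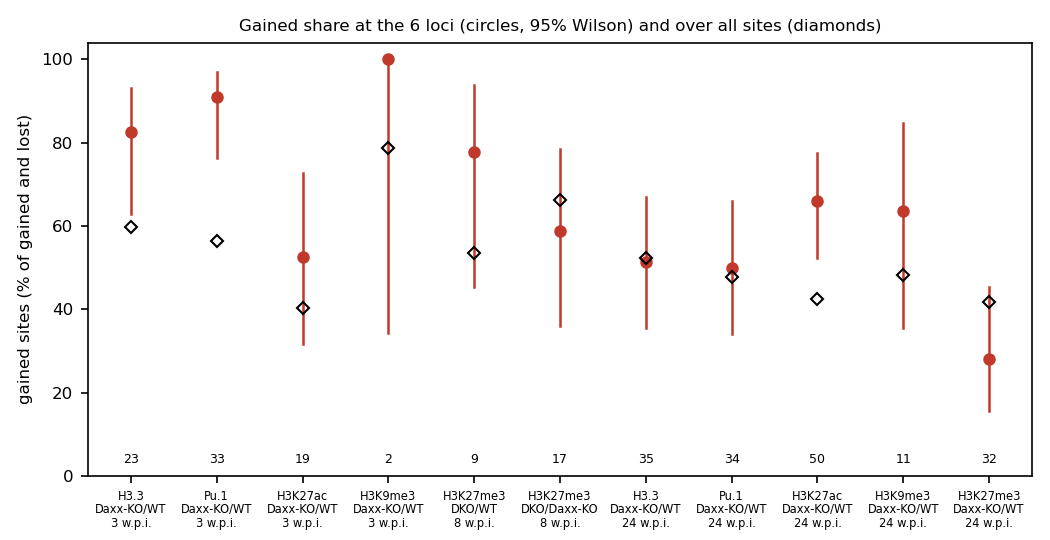
Circles give the percentage of called sites at the 6 loci that were gained in each of the 11 tables with a called site, lines are 95% Wilson intervals, and the numbers along the axis are called sites. Diamonds give the same percentage over all called sites of the table, and they lie below the interval for H3.3 and Pu.1 at 3 w.p.i. and for H3K27ac at 24 w.p.i.

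At 24 w.p.i. the shares for H3.3 and Pu.1 lay near those of all sites. H3.3 had 37 sites, 18 gained, 17 lost and 2 mixed, against 51.3% gained and 47% lost of all 255404. Pu.1 had 17 gained and 17 lost of 34, against 46.9% gained and 51.3% lost of all 253825. H3K27ac had 52 sites, 33 gained, 17 lost and 2 mixed, against 41.3% gained and 56% lost of all 193657. Gained sites were 66% of its called sites (52.2 to 77.6), beside 42.5% over all sites. H3K9me3 had 7 gained, 4 lost and 1 mixed site, against 46.9% gained and 50.3% lost of all 150482. H3K27me3 had more lost than gained sites, 9 gained, 23 lost and 1 mixed, against 40.8% gained and 56.8% lost of all 134001. Gained sites were 28.1% of its called sites (15.6 to 45.4), and the 41.8% over all called sites lies within that interval. The split depended on the scaling of the libraries. With reads divided by the mean reads per window in place of the constant of the study, the gained share was 79.5% for H3K27ac, 77.8% for H3K9me3 and 40.9% for H3K27me3, and over all sites it was 47%, 48.7% and 46.3%.

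Sites of one mark that overlapped between 3 and 24 w.p.i. formed 16 pairs with the same and 13 with the opposite direction. Some sites were in several pairs. Such pairs were not counted over all listed sites, so these counts have no background share beside them. Cdkn1a supplied 12 of the first and 0 of the second, with mostly gained sites at each time. For H3K27ac, 8 pairs of overlapping sites had the same and 5 the opposite direction. H3.3 had 4 and 2 such pairs, and Pu.1 had 4 and 6.

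Cdkn1a had the most gained H3K27ac sites, 8 at 3 w.p.i. and 15 of 18 at 24 w.p.i. The site with the widest difference lay 16151 bp past the nearest Cdkn1a start site at 3 w.p.i. and 15401 bp at 24 w.p.i., over the 5′ end of Rab44, a Rab GTPase gene. At 3 w.p.i. (chr17:29114051-29116350) it had 709 and 533 normalized counts in the Daxx-KO and 299 and 338 in the WT libraries, a 1.95-fold ratio of the means, and every pair of libraries gave a ratio between 1.58 and 2.37. At 24 w.p.i. (chr17:29113301-29115850) it had 5183 and 5383 against 3168 and 2919, a ratio of 1.74 with pairs between 1.64 and 1.84. The Daxx-KO libraries were above both WT libraries at each time, from different mice. By the difference of group means this was site 73 of 103914 at 3 w.p.i. and site 326 of 193657 at 24 w.p.i. H3.3 was gained over the same 5′ end, with 67.1 and 53.8 against 24.5 and 10.5 at 3 w.p.i. and with 37.5 and 134 against 26.8 and 7.52 at 24 w.p.i. Whether this signal belongs to Cdkn1a or to Rab44 cannot be told apart from its position.

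Upstream of Cdkn1a, over the first exon of Trp53cor1, the long non-coding RNA also called lincRNA-p21, H3K27ac was gained at both times. At 3 w.p.i. (chr17:29078351-29079000) it was 14.5 and 17 in the Daxx-KO and 2.15 and 3.31 in the WT libraries. At 24 w.p.i. (chr17:29078451-29079600) it was 427 and 479 against 361 and 167. H3K27me3 was gained beside it at 24 w.p.i. (chr17:29077951-29079050), with 124 and 125 against 47.6 and 68.5. The widest H3K27me3 difference at Cdkn1a lay in a Trp53cor1 intron at that time (chr17:29075651-29076850), 153 and 138 against 70 and 61.4. At the first exon both marks were therefore higher in Daxx-KO libraries of the same mice over overlapping bases. In the comparison of DKO with Daxx-KO at 8 w.p.i., H3K27me3 over this place (chr17:29077701-29079850) was lost, with 40.2, 18.1 and 7.44 in DKO against 91.4, 93.5 and 102 in Daxx-KO, a ratio of 0.229.

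At the most upstream Cdkn1a promoter, whose sequence with the ACATGT pair is printed above, 4 antibodies had gained sites at 24 w.p.i. H3K27me3 just after the start (chr17:29091051-29092200) was 151 and 122 in the Daxx-KO and 65.3 and 64.2 in the WT libraries, and over the start (chr17:29090401-29091000) it was 21.5 and 25.8 against 6.54 and 8.57. H3K27ac over the start (chr17:29090451-29091050) was low, 27 and 36.6 against 10.1 and 0.79. The active and the repressive mark of the same lysine thus had the same direction here. Pu.1 (chr17:29091301-29092050) was 27.3 and 121 against 4.32 and 2.11. H3.3 (chr17:29091801-29092800) was 53 and 54.3 against 9.22 and 7.52. The groups did not overlap for any of the 4 antibodies, and the Pu.1 values of the Daxx-KO libraries differed from each other more than the others did. At 3 w.p.i. H3.3 before this start (chr17:29089751-29090750) was 38.7 and 69.3 against 12.6 and 0. Its widest difference at Cdkn1a at that time lay further upstream (chr17:29084401-29085650), 153 and 148 against 72.2 and 15.7.

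At the second promoter cluster, about 3 kb into the gene, Pu.1 at 3 w.p.i. (chr17:29093451-29095650) was 219 and 251 in the Daxx-KO and 88.8 and 95.9 in the WT libraries, the widest Pu.1 difference at Cdkn1a at that time. At 24 w.p.i. H3K27ac there (chr17:29093851-29094750) was lost, 269 and 315 against 708 and 363, a call that became mixed with the other scaling. The heterochromatin mark and the histone variant went the other way. H3K9me3 (chr17:29094151-29096200) was gained, 88 and 188 against 34.2 and 19.7. H3.3 (chr17:29094151-29095100) was 35.3 and 67.9 against 0 and 0, at least 18.4-fold higher when 3 reads per library are put in place of 0. In DKO against WT at 8 w.p.i., H3K27me3 at this promoter (chr17:29093001-29093750) was mixed, 94, 49.8 and 9.81 against 22.7, 19 and 31.3.

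Over the coding exons of Cdkn1a at 24 w.p.i. H3K9me3 and H3K27me3 were lost and H3K27ac and Pu.1 gained. H3K9me3 (chr17:29098101-29099250) was 0 and 4.17 in the Daxx-KO and 65.3 and 75 in the WT libraries. H3K27me3 (chr17:29098151-29099250) was 18.4 and 46 against 128 and 90. None of these groups overlapped, and H3K9me3 was close to absent in both Daxx-KO libraries. H3K27ac (chr17:29098401-29099050) was 142 and 136 against 98.3 and 55.4. Pu.1 (chr17:29098701-29099300) was 62 and 130 against 0 and 6.32, and it had been gained at nearly the same place at 3 w.p.i. (chr17:29098751-29099350), with 60.6 and 64.8 against 38.1 and 9.59. H3.3 had no listed site on the coding exons at 24 w.p.i., and at 3 w.p.i. (chr17:29098451-29099700) it was 119 and 112 against 77.1 and 5.24, where the lowest value is that of the shallow library. At the start site just before these exons the calls were not all alike. H3K27ac at 24 w.p.i. (chr17:29097451-29098050) was lost there, 17.2 and 5.85 against 40.2 and 41.1. H3.3 beside it was gained at both times, 225 and 36.2 against 2.77 and 0 at 24 w.p.i. (chr17:29097051-29097700), where 1 Daxx-KO library was far above the other, and 41.9 and 47.9 against 21 and 20.9 at 3 w.p.i. (chr17:29096751-29097350). Pu.1 at 3 w.p.i. (chr17:29096901-29097850) was 93.7 and 97.3 against 38.6 and 0. The 0 is from the shallow library. Cdkn1a lies 4.81 Mb from Daxx on chromosome 17. The Daxx F/F line was made in C57BL/6N and crossed with C57BL/6J mice, so the floxed allele and DNA linked to it cannot be told apart from Daxx loss at this locus.

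Cdkn1b encodes p27, and its promoter, printed above with a single GC box, was covered by gained H3K27ac at 24 w.p.i. (chr6:134919601-134921400). The values were 2766 and 2739 in the Daxx-KO and 2246 and 1403 in the WT libraries, a 1.51-fold ratio with pairs between 1.22 and 1.97. Pu.1 (chr6:134919951-134920850) was 91.3 and 39.7 against 20.1 and 25.3. H3K9me3 (chr6:134919301-134921300) was also gained, 119 and 211 against 21.8 and 0. The Polycomb mark went the other way. H3K27me3 was lost over the start of the gene (chr6:134920401-134921150), 19.1 and 28.5 against 63.5 and 54.3, and just before it (chr6:134919451-134920050), 9.57 and 8.28 against 36.4 and 25.7. H3K9me3 and H3K27me3 had opposite directions at one promoter, in libraries of the same mice. Inside the coding exon (chr6:134921301-134921900) H3K27ac was called lost, 614 and 588 against 700 and 687, a difference that reversed with the other scaling. All 3 H3K27me3 sites of Cdkn1b at 24 w.p.i. were lost, where 56.8% of all listed sites and 62.4% of those within 1 kb of a start site were lost. The widest difference lay upstream of the gene (chr6:134910351-134911400), with 7.98 and 14.7 against 67.2 and 27.1. Of its 13 H3K27ac sites 7 were gained, 5 lost and 1 mixed, where 41.3% of all listed sites were gained and 56% lost.

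Beyond the 3′ end of Cdkn1b, over the 5′ end of the long non-coding RNA Lockd, whose start is a known enhancer of Cdkn1b, H3K27ac had listed sites at both times. At 3 w.p.i. (chr6:134928351-134929600) it was lost, 132 and 42.5 against 202 and 182, and this call became mixed with the other scaling. At 24 w.p.i. (chr6:134927251-134929300) it was gained, 2325 and 2493 against 1459 and 1272, a ratio of 1.76 with pairs between 1.59 and 1.96. These calls were opposite over 950 shared bp. A second 24 w.p.i. site (chr6:134929501-134930150), which shared 100 bp with the 3 w.p.i. site, was lost, 143 and 152 against 210 and 214, and its mean difference reversed with the other scaling. The widest H3.3 and Pu.1 differences at Cdkn1b lay outside the gene. H3.3 was lost at 3 w.p.i. (chr6:134914301-134914900), 13.4 and 7.37 against 43.5 and 102, and gained at 24 w.p.i. (chr6:134915551-134916400), 99.4 and 138 against 33.2 and 0. Pu.1 was gained at 3 w.p.i. in Lockd (chr6:134931451-134932300), 48.8 and 47.8 against 20.4 and 6.39, and at 24 w.p.i. upstream (chr6:134904301-134905150), 166 and 58.5 against 2.88 and 4.21. No H3K9me3 or H3K27me3 site was listed at Cdkn1b at 8 w.p.i. in any of the tables used.

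**Figure D3:**
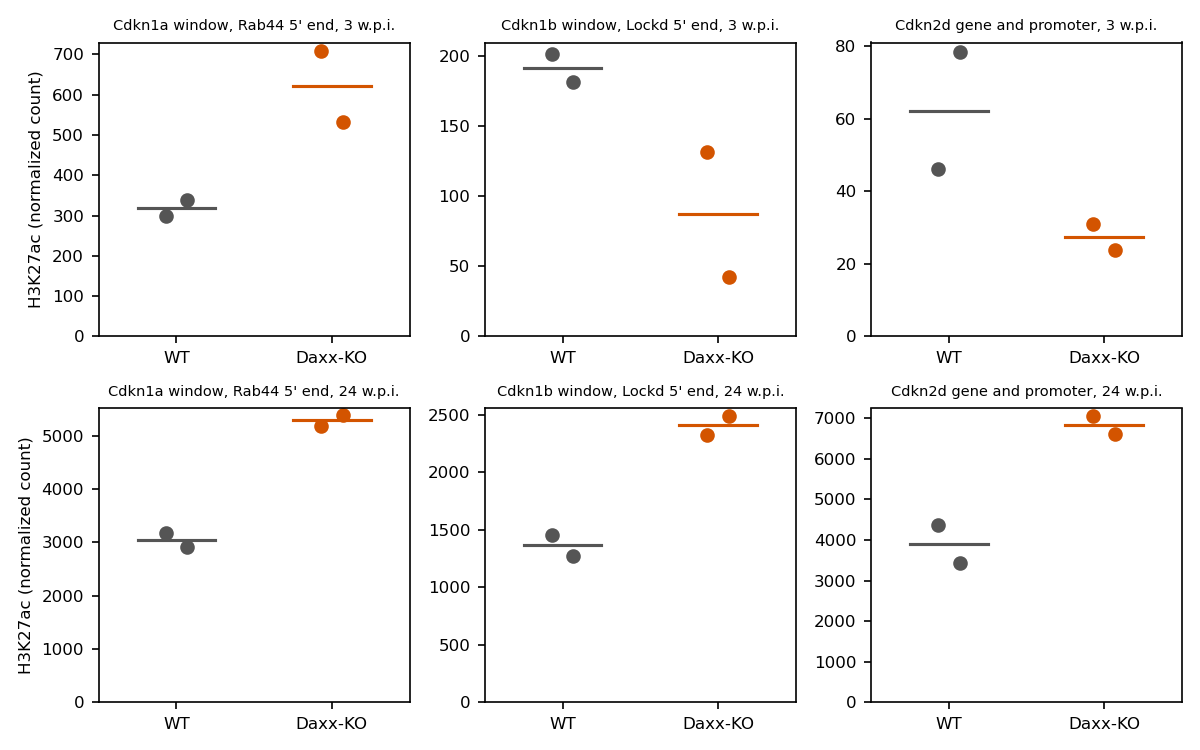
H3K27ac at the site with the widest difference of group means for Cdkn1a, Cdkn1b and Cdkn2d, at 3 w.p.i. above and 24 w.p.i. below, with points for the 2 libraries of a group, lines for their mean and axes from 0. Counts are normalized within a table, so levels are not comparable between the times. Daxx-KO lies above WT in all 3 lower panels, and in the upper panels only for Cdkn1a. The upper Cdkn1b and Cdkn2d calls became mixed with the other scaling. The sites of a gene differ in length between the times, most of all for Cdkn2d.

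Cdkn2d, the smallest member at 2998 bp, encodes p19Ink4d and overlaps none of its neighbours Kri1, Atg4d and Ap1m2. One H3K27ac site of 4350 bp covered the whole gene with its promoter and the adjoining end of Kri1 at 24 w.p.i. (chr9:21287551-21291900). It had 7060 and 6617 normalized counts in the Daxx-KO and 4382 and 3426 in the WT libraries, a 1.75-fold ratio with pairs between 1.51 and 2.06. By the difference of group means it was site 175 of 193657. Since the site reaches into Kri1, its signal cannot be assigned to Cdkn2d alone from its position. At 3 w.p.i. the listed site was a 600-bp piece at the promoter (chr9:21291351-21291950), lost with 31 and 23.8 against 46.2 and 78.3, a call that became mixed with the other scaling. The promoter printed above, with its 5 GC boxes, lies inside the 24 w.p.i. site and overlaps the edge of this one.

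H3K27me3 was lost at all 5 listed Cdkn2d sites at 24 w.p.i., where 56.8% of all listed sites and 62.4% of those within 1 kb of a start site were lost. Over the 3′ end of Cdkn2d and the adjoining end of Kri1 (chr9:21287451-21288800) H3K27me3 was 89.3 and 52.4 in the Daxx-KO and 210 and 240 in the WT libraries, a ratio of 0.315. At the promoter (chr9:21291351-21291950) it was 51.9 and 30.4 against 92.4 and 94.2. All 5 kept their call with the other scaling.

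Most listed Pu.1 and H3.3 sites of Cdkn2d were gained at 3 w.p.i. and lost at 24 w.p.i. Over all called sites the gained share fell too, from 56.4% to 47.8% for Pu.1 and from 59.7% to 52.2% for H3.3. At the 28 cell-cycle genes counted further on it fell from 76.5% to 50% and from 81.7% to 52.5%. The WT values of 3 w.p.i. include the shallow replicate 2. Pu.1 had 12 gained and 1 lost site at 3 w.p.i. and 2 gained and 8 lost at 24 w.p.i. At the promoter it was 54.4 and 66.5 against 23.5 and 32 at 3 w.p.i. (chr9:21290751-21291400). At 24 w.p.i. the gene had a lost site (chr9:21289601-21290600), 0 and 27.2 against 54.7 and 88.4. H3.3 had 8 gained and 0 lost sites at 3 w.p.i. and 3 gained, 7 lost and 2 mixed at 24 w.p.i., among them a lost site at the promoter (chr9:21290701-21291300) with 45.3 and 34 against 75.6 and 132. The widest differences at 24 w.p.i. were lost sites in introns of Ap1m2. H3.3 there (chr9:21303201-21304850) was 14.3 and 0 against 107 and 144, and Pu.1 (chr9:21306851-21307700) 17 and 0 against 51.8 and 121. At 3 w.p.i. the widest were gained, H3.3 in Atg4d (chr9:21267851-21269250) with 169 and 114 against 48.4 and 20.9, and Pu.1 in Kri1 and Atg4d (chr9:21275501-21276800) with 272 and 92.4 against 83 and 63.9. H3K9me3 at 24 w.p.i. was gained over the end of Kri1 next to Cdkn2d (chr9:21287451-21288150), 44.6 and 99 against 0 and 7.5. The 2 times are separate mice and separately normalized tables, and the difference between them was not tested.

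Cdkn2a and Cdkn2b lie side by side on chromosome 4, and their H3K27me3 was the highest of the 6 loci. Per kb of site, the highest WT level at 24 w.p.i. was 993 normalized counts at Cdkn2a and 918 at Cdkn2b, against 167 at Cdkn2d, 141 at Cdkn2c, 99 at Cdkn1a and 78.5 at Cdkn1b. These are levels at sites that were listed for a difference, not at the whole loci. Most sites were called lost in Daxx-KO, as were 56.8% of all listed sites. Over the last exon of Cdkn2a (chr4:89274651-89275250) the values were 566 and 537 against 595 and 597, and in the intron before it (chr4:89275401-89276000) 332 and 362 against 462 and 488. In these places both Daxx-KO libraries lay close to each other and below WT. Near the p16Ink4a start (chr4:89282651-89283300) they were 114 and 106 against 196 and 131. At the 3′ end of Cdkn2b (chr4:89306551-89307150) they were 420 and 419 against 421 and 681, so that 1 WT library was level with Daxx-KO. The ratios of the 10 lost sites of the 2 genes ran from 0.454 to 0.926. With the other scaling 9 of the 10 became mixed, and the remaining one lay upstream of Cdkn2b (chr4:89315151-89316000), 27.9 and 28.5 against 61.6 and 62.8. This site and the one over the last exon were chosen after their values were seen.

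**Figure D4:**
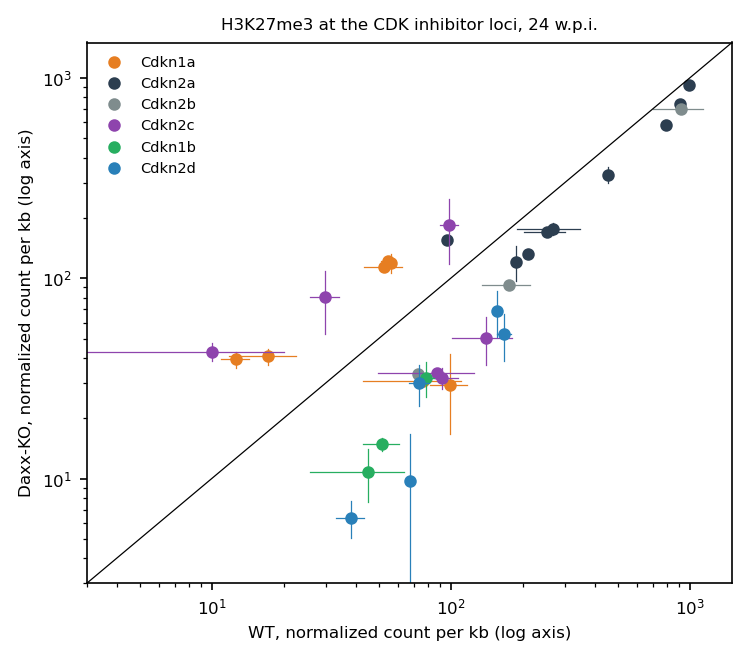
Every listed H3K27me3 site of the 6 loci at 24 w.p.i. by its mean normalized count per kb in WT on the horizontal and Daxx-KO on the vertical log axis. Thin lines span the 2 libraries of a group and the diagonal marks equal levels. The highest points are Cdkn2a and Cdkn2b sites close below the diagonal, all Cdkn1b and Cdkn2d sites lie further below it, and Cdkn1a and Cdkn2c sites lie on both sides.

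The DKO libraries of 8 w.p.i. also had lower H3K27me3 than Daxx-KO at this pair of genes. Of the Cdkn2a sites 6 were lost, 1 gained and 1 mixed, and of the Cdkn2b sites 4 were lost, with sites between the genes counted for both. Of all listed sites of this comparison 55.9% were gained and 28.5% lost. The gained site (chr4:89270651-89271300) and 1 lost site between the genes (chr4:89296451-89297050) became mixed with the other scaling. In the intron after the p16Ink4a start (chr4:89280651-89281450) the values were 23.9, 45.2 and 26.1 in DKO and 130, 52.2 and 71.7 in Daxx-KO, a ratio of 0.375. Further into the gene (chr4:89278001-89278600) they were 108, 124 and 91.8 against 216, 151 and 198. At the 3′ end of Cdkn2b (chr4:89306251-89307000) they were 110, 78.4 and 65.8 against 149, 123 and 146. The groups did not overlap at these 3 sites. Against WT, DKO had 2 lost sites in the Gm12606 transcript downstream of Cdkn2a, one of them (chr4:89259251-89260050) with 29.4, 40.2 and 47.9 against 75.2, 76.1 and 55.9, and 1 gained site next to Cdkn2b (chr4:89305101-89305700), 38.5, 84.7 and 56.7 against 26.2, 35.3 and 32.4. The 2 comparisons share the DKO libraries.

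The other antibodies gave scattered sites at these genes. At the p16Ink4a start H3.3 at 3 w.p.i. (chr4:89281851-89282550) was gained, 53.7 and 52.3 against 35.8 and 5.24. At the Cdkn2b promoter, H3.3 at 3 w.p.i. (chr4:89310101-89311100) was gained, 83.7 and 42 against 30.1 and 15.7. Pu.1 over nearly the same bases at 24 w.p.i. (chr4:89310051-89311100) was lost, 10.9 and 2.09 against 93.5 and 52.6. Some of the widest differences lay away from the promoters. In Gm12606, H3.3 at 3 w.p.i. (chr4:89266401-89267100) was lost, 8.69 and 4.42 against 44.2 and 52.4, and Pu.1 at 24 w.p.i. (chr4:89254051-89255200) 8.18 and 0 against 83.5 and 63.1. At Cdkn2b, Pu.1 at 3 w.p.i. (chr4:89307901-89308650) was lost, 35.5 and 8.92 against 63.7 and 63.9, a call that became mixed with the other scaling, and H3K9me3 at 24 w.p.i. (chr4:89303201-89303850) was gained, 35.1 and 58.4 against 12.4 and 1.87. Cdkn2a encodes p19Arf from a start site of its own, upstream of that of p16Ink4a. Before this start at 24 w.p.i., H3.3 (chr4:89295001-89296100) was lost, 8.83 and 0 against 85.8 and 45.1. H3K27ac (chr4:89294901-89295700) was gained there, 60.7 and 38.1 against 10.1 and 19. Its Daxx-KO level was 61.7 normalized counts per kb of site, where the highest at Cdkn1b was 1529 and at Cdkn2d 1572. No H3K27ac site was listed in the Cdkn2a and Cdkn2b windows at 3 w.p.i., and none at 8 w.p.i. for H3K9me3.

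Cdkn2c encodes p18, and it had the most extensive H3K27me3 gain of the loci in DKO. Against WT all 6 of its sites at 8 w.p.i. were gained, and against Daxx-KO all 9 were. Of all 61831 listed H3K27me3 sites of DKO against WT, 48% were gained and 41.6% lost, and of all 59565 sites of DKO against Daxx-KO, 55.9% were gained and 28.5% lost. The 6 loci together had 7 gained, 2 lost and 1 mixed site in the first comparison and 10 gained, 7 lost and 1 mixed in the second, so the loci other than Cdkn2c supplied 1 gained site in each.

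The main site, 8050 bp long, began in the 3′ UTR of Cdkn2c and ran downstream over the non-coding transcripts 9630013D21Rik and Gm12811 (chr4:109652901-109660950). It had 1438, 918 and 604 normalized counts in DKO and 216, 174 and 179 in WT, a 5.2-fold ratio with pairs between 2.79 and 8.27. Every DKO library was above every WT library, and the DKO libraries differed among themselves more than the WT libraries did. By length it was site 16, and by the difference of means site 15, of 61831. The CpG-rich stretch printed above lies inside it. Against Daxx-KO the same stretch was split into several sites, of which one (chr4:109657901-109659700) had 344, 280 and 253 against 161, 63 and 134, a ratio of 2.45. Another (chr4:109655251-109656850) had 239, 251 and 191 against 70.8, 59.8 and 116. By the difference of means the first was site 107 of 59565.

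The gain reached the Cdkn2c gene itself. From its intron to the downstream start site (chr4:109663701-109666050) DKO had 57.7, 100 and 50.1 and WT 5.25, 11.8 and 4.47, a 9.69-fold ratio. Against Daxx-KO the start site piece (chr4:109665051-109666050) was 42.7, 53.3 and 17.4 against 3.29, 13 and 11.8, and the intron piece (chr4:109663701-109665000) was 21.4, 62.3 and 39.7 against 4.94, 0 and 5.26. The groups did not overlap, but levels of this size rest on few reads. All of the Cdkn2c sites in both comparisons kept their call with the other scaling.

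**Figure D5:**
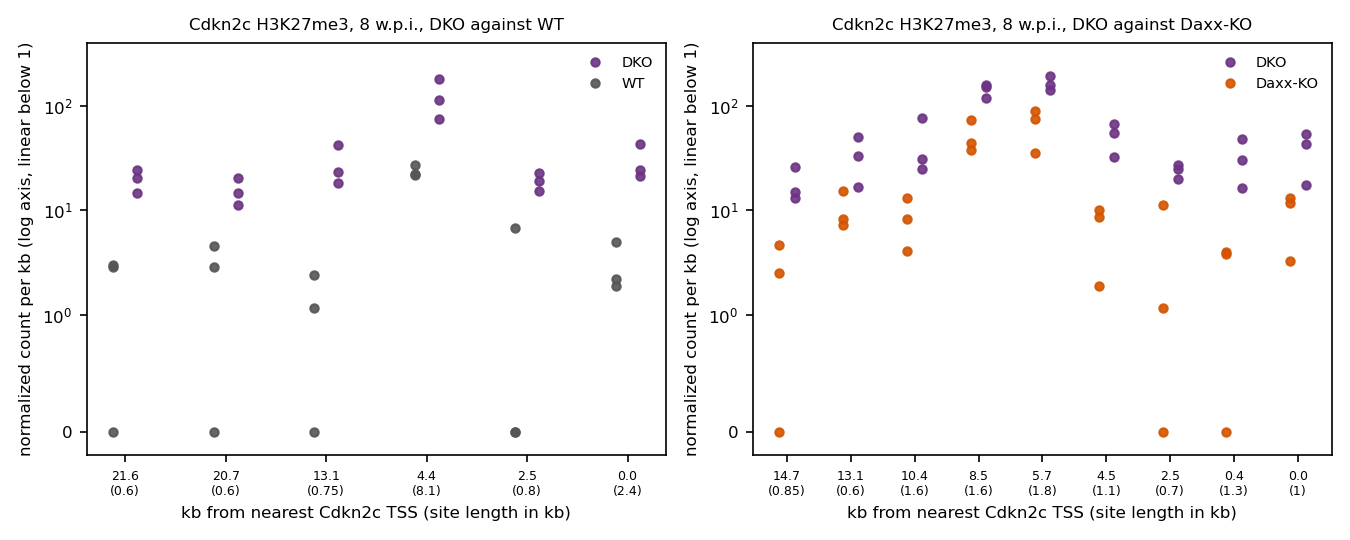
H3K27me3 at every listed Cdkn2c site at 8 w.p.i., as normalized count per kb of site in each of 3 DKO, 3 WT (left) or 3 Daxx-KO (right) libraries, on an axis that is logarithmic above 1 and linear below. Sites are ordered by their distance downstream of the nearest Cdkn2c start site, with site length in brackets. Each point is 1 library, and DKO lies above the other genotype at all 6 and all 9 sites.

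In Daxx-KO at 24 w.p.i. the downstream stretch and the promoter of Cdkn2c went opposite ways. Downstream (chr4:109656001-109657050) H3K27me3 was gained, 55 and 114 against 27.1 and 35.7, and next to it (chr4:109657901-109658500) 71 and 149 against 54.1 and 64.2. At the upstream promoter (chr4:109666751-109667700) it was lost, 35.1 and 60.7 against 172 and 95.7, and over the second, downstream start site (chr4:109665251-109666000) it was lost too, 25.5 and 24.8 against 37.3 and 94.2, though this call became mixed with the other scaling. H3K27ac was called both ways around that start at 24 w.p.i. Before it (chr4:109665701-109666600) it was gained, 656 and 451 against 356 and 400. After it (chr4:109664551-109665300) it was lost, 58.5 and 45.4 against 79.3 and 176, and mixed with the other scaling. Pu.1 was called at both times, at different bases. At 3 w.p.i. it was gained before the start (chr4:109665551-109666700), 117 and 105 against 42.3 and 38.4, and mixed at the upstream promoter (chr4:109667051-109667700), 37 and 35.7 against 20.4 and 141. At 24 w.p.i. it was lost after the start, over the coding exon (chr4:109664501-109665100), 2.73 and 2.09 against 50.4 and 44.2. Further differences lay outside the gene. In the downstream stretch H3.3 at 24 w.p.i. (chr4:109657501-109658150) was gained, 115 and 74.7 against 30.4 and 24.4. The widest Pu.1 difference of that time lay beyond it in Gm12811 (chr4:109647351-109648400), 194 and 107 against 5.76 and 2.11. H3K27me3 was thus higher than WT over the downstream stretch in Daxx-KO and in DKO, in separate mice at different times, and the DKO libraries were also higher than Daxx-KO at 8 w.p.i.

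Few H3K9me3 differences were listed at the loci at 8 w.p.i., which does not give the level of the mark there. Daxx-KO against WT had 0 sites at the loci, where 56.8% of all 69846 listed sites were gained and 32.3% lost. DKO against WT had 1 mixed site downstream of Cdkn1a (chr17:29105651-29106800), 47.4, 86.3 and 20.7 against 26.1, 23.1 and 32.9, where 48% of all 49314 sites were gained and 17.7% lost. DKO against Daxx-KO had 1 mixed site at the same place, 26.5, 75.2 and 13.8 against 20.8, 18 and 17.7, where 45.5% of all 42945 were gained and 24.3% lost. The second and highest DKO value was from a library with a mean of 0.21 reads per window.

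The other genes of the cell-cycle pathway were counted in windows of the same width, 28 genes from a list of CDK inhibitors, cyclins and kinases, pocket proteins and E2F factors, the p53 axis, p27 turnover and Polycomb proteins. At 3 w.p.i. their H3.3 sites were 179 gained and 40 lost and their Pu.1 sites 169 and 52, gained shares of 81.7% and 76.5% of called sites beside 59.7% and 56.4% over all sites. H3K27ac at 3 w.p.i. had 76 gained and 137 lost sites, a gained share of 35.7% beside 40.3% over all sites, and all 7 pocket protein and E2F genes had more lost than gained sites. The 9 cyclin and kinase genes together had 45 gained and 41 lost H3K27ac sites at 3 w.p.i. and 103 and 81 at 24 w.p.i., and they differed from each other. Among the kinases that Ink4 proteins inhibit, Cdk6 had 27 gained and 6 lost H3K27ac sites at 3 w.p.i. and 46 and 22 at 24 w.p.i. Cdk4 had 1 and 1, and then 9 and 4. The cyclin D2 gene Ccnd2 had 5 and 2, and then 8 and 3. The other D-type cyclin genes had more lost than gained sites at 3 w.p.i. Ccnd3 had 3 and 16, and then 22 and 23, and Ccnd1 had 1 and 4, and then 7 and 6. At 24 w.p.i. H3K27me3 had 52 gained and 112 lost sites at the 28 genes, a gained share of 31.7% beside 41.8% over all sites. Among 9 cyclin and kinase genes 8 had more lost than gained H3K27me3 sites, with 0 gained and 16 lost at Ccnd2, 0 and 7 at Ccnd3 and 3 and 9 at Ccnd1, the genes of the D-type cyclins. The exception was Cdk4, with 6 gained and 3 lost sites. In DKO against WT, H3K27me3 was gained at 37, lost at 1 and mixed at 26 sites of the 28 genes. The gained share was 97.4% of called sites beside 53.6% over all sites. Bmi1, a Polycomb gene, had 10 gained, 0 lost and 7 mixed sites. In DKO against Daxx-KO the 28 genes had 16 gained, 9 lost and 11 mixed, a gained share of 64% beside 66.3%. Bmi1 had 1 gained, 1 lost and 1 mixed in that comparison. H3K27ac at 24 w.p.i. had unlike shares in the sets, with 44.8% of called sites gained over the 28 genes and 66% at the 6 members, beside 42.5% over all sites, and no test of this difference was made.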

How the data were processed

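Libraries of 54 samples were compared in the tables used here, of 62 in the series, and 8 DKO libraries of 24 w.p.i. are in no table. Per the file headers, the authors ran diffReps 1.55.6 with windows of 600 bp moved by 50 bp, a fragment size of 100 bp, a negative binomial test and a window cutoff of 0.0001, and merged windows into sites. The deposited value of a site in a library is a normalized count, its reads divided by the constant of the header. The submitters' processing notes name CASAVA 1.8.4, cutadapt 1.13, STAR 2.5.3, bedtools and mm10. Deposited columns with the study's own group averages, log2 fold changes and p-values were not used. Reads on chromosomes X and Y are absent at 24 w.p.i. One further table, for Daxx-KO H3K27me3 at 8 w.p.i., was not used, since its control libraries are H3K9me3 libraries.

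Sites were assigned to a locus by at least 1 bp of overlap, with positions 1-based as in the files. Calls required full separation of the libraries. Promoter sites lay within 1 kb of a start site. The rule for named sites takes those within 1 kb of a member start site, the called one with the widest difference of group means for each gene and table, and those that overlap a site of the same mark in another table. The last kind is given by counts and in part by values, chosen with the values known. The members and gene lists were chosen with earlier results of these data known. As alternatives, flanks of 5 and 50 kb, the midpoint of a site, a minimum mean of 20, an absolute log2 ratio of 1, joining within 1 kb, the sign of the mean difference, another scaling and each library left out were tried. Replicates of a group are different mice by their numbers in the labels, except that 1 WT mouse of 3 w.p.i. carries no number. Python 3.11.15 with numpy 2.4.6, scipy 1.17.1 and matplotlib 3.10.9 was used, and the functions were tested on simulated data.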

Additional observations from a re-analysis of the deposited data

Results flagged for a closer look

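In 13 pairs of overlapping sites, sharing 50 to 950 bp, every Daxx-KO library was above WT at one time and below it at the other. Such pairs were not counted over all listed sites. The difference between the times was not tested, the tables were normalized separately, and the values below are Daxx-KO means minus WT means in normalized counts, with the 3 w.p.i. value first.

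At Cdkn2d, H3.3 differed by 107 (chr9:21267851-21269250) and then by -36.8, and by 39.5 (chr9:21270801-21271400) and then by -36.9. Pu.1 at Cdkn2d gave 5 such pairs. They were 109 and -40.8 at 21275501, 24.5 and -40.8 at 21281501, 58.2 and -49.1 at 21288151, 49.4 and -34.4 at 21297951, and 38.7 and -77.9 at 21307651, each place named by the start of its 3 w.p.i. site. The WT mean of H3.3 and Pu.1 at 3 w.p.i. includes the shallow replicate 2, whose part in these pairs was not tested. H3K27ac at the Cdkn2d promoter was -34.9 at 3 w.p.i. and 2935 over the longer site of 24 w.p.i. The 3 w.p.i. call of this pair became mixed with the other scaling.

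At Cdkn1b, Pu.1 was 32.7 and then -41 upstream of the gene (chr6:134905451-134906050). H3K27ac was -15.1 at 3 w.p.i. (chr6:134918201-134918900) and 74.1 and 37.6 at the 2 sites that overlap it at 24 w.p.i. Over the 5′ end of Lockd it was -105 and then 1043, and the 3 w.p.i. call there became mixed with the other scaling. At Cdkn2c, H3K27ac was 16.1 and then -37.6 in Gm12811 (chr4:109644601-109645250), from WT means of 0 and 49.4.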

How the results depend on the processing

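Of 136 alternative values of the gained share, 130 stayed within the 95% Wilson interval of the value given above. With a flank of 5 kb the share was 75% for Pu.1 and 20% for H3K27ac at 3 w.p.i., and 100% for H3K27me3 in DKO against WT. Over all called sites these shares were 56.4%, 40.3% and 53.6%, and 71.8% of all Pu.1 sites within 1 kb of a start site were gained. The H3K27ac share was thus below that of all sites with 5 kb, and above it with 20 kb (52.6%). With a mean of at least 20 in the higher group the share at the loci was 75% for H3K27ac at 3 w.p.i. For H3K27ac at 24 w.p.i. it was 51.9% where an absolute log2 ratio of 1 was required and 79.5% with reads scaled by the mean per window. That scaling also reversed the mean difference at 2 Cdkn1b H3K27ac sites of 24 w.p.i., to 161 from 134921301 to 134921900 and to 4.89 from 134929501 to 134930150, and left 11 of 130 named sites no longer separated. The cause was not tested. Leaving out 1 library cannot undo a full separation, and the shares ran from 82.6% to 82.6% for H3.3, 88.2% to 91.2% for Pu.1, 50% to 55% for H3K27ac and 100% to 100% for H3K9me3 at 3 w.p.i. They ran from 77.8% to 80% for H3K27me3 in DKO against WT and 55.6% to 58.8% against Daxx-KO, and at 24 w.p.i. from 51.4% to 54.1% for H3.3, 50% to 50% for Pu.1, 65.4% to 66.7% for H3K27ac, 58.3% to 66.7% for H3K9me3 and 27.3% to 28.1% for H3K27me3. The 3 tables of H3K9me3 at 8 w.p.i. gave no share, having 0, 1 and 1 sites at the loci and no call. No paired analysis was possible because the results come from no test. The tables hold only sites with a difference, so unchanged regions cannot be described, and the libraries of 8 w.p.i. are the shallowest.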
